A study of Homo sapiens with 6 samples.

Results

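The genes described here are 57 members of the NRF2 pathway and of the wider defence against reactive oxygen. They are NRF2 itself and its regulators, the quinone, haem, glutathione and thioredoxin enzymes, the peroxidases, the aldo-keto reductases and the glutathione transferases, chosen by name and with metallothioneins left out. Of these, 56 had values among the 17563 genes with values in the table, and the glutathione transferase GSTA1 had none. RNA was sequenced from Ls174t, a mucin-secreting cell line of human colorectal cancer. A stable line overexpressing RNF186, a ubiquitin ligase of the endoplasmic reticulum found in colonic epithelium, was compared with a line carrying the vector. Each line was split over 3 dishes of 6 cm, left untreated and collected at 48 h in DMEM holding 10% serum and 1% penicillin-streptomycin. Since a group is 1 line divided over dishes, p-values cover dish-to-dish spread alone, and differences between the 2 lines that do not come from RNF186 cannot be told apart from its effect. Whether either line is 1 clone is not stated in the labels.

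NRF2, encoded by NFE2L2, is a transcription factor that the adaptor KEAP1 holds at low protein levels by feeding it to a ubiquitin ligase. Electrophiles and oxidants modify cysteines of KEAP1, NRF2 builds up, pairs with a small MAF protein and binds antioxidant response elements near genes for glutathione synthesis, thioredoxin reduction and quinone detoxification. BACH1 competes for the same elements. NRF2 is regulated largely through protein stability, so its RNA need not follow its activity, and no protein was measured here. In the gut epithelium these enzymes meet oxidants from food, bacteria and immune cells.

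RNF186 stood at 451.72, 577.47 and 484.61 FPKM in the RNF186 dishes, against 0.69, 0.71 and 0.61 FPKM in the vector dishes, as the labels require (FPKM counts fragments relative to gene length and library size). The summed FPKM of a library ran between 387477.6 and 412391.1, and 11510 to 11686 genes reached 1 FPKM; the number of reads is unknown. All 12 colorectal epithelial markers reached 1 FPKM. They summed to 5443 to 5944 FPKM in the RNF186 dishes and to 6603 to 7199 FPKM in the vector dishes, but singly they went both ways: 4 were higher in the RNF186 line, 5 lower and 3 not called. KRT8, which carried most of the lower sum, averaged 2751 ± 227 FPKM in RNF186 dishes and 3651 ± 175 FPKM in vector dishes (SD, n = 3 each; change -0.41, adjusted p = 0.00112), while CEACAM5 was higher by 1.31 and EPCAM by 0.20 (adjusted p = 1.5e-08 and 0.014). The part of these differences in the results below was not tested, and in bulk RNA fewer cells of a type and less RNA per cell cannot be told apart. Of 5 blood cell markers, 2 reached 1 FPKM, with sums of 3.26 to 3.92 FPKM in the RNF186 dishes and 3.81 to 4.37 FPKM in the vector dishes, and the haemoglobin gene HBB was at 0. None of the fibroblast, endothelial or retinal markers with values reached 1 FPKM. The second RNF186 dish stood apart. On the second principal component, which held 10.1% of the variance, it lay at -12.09, while the other 5 libraries lay between -4.643 and 5.592. Its deviation from its group followed GC content with a Spearman correlation of 0.736 across genes, against -0.574 and -0.522 for the other RNF186 dishes and 0.485, -0.13 and -0.443 for the vector dishes. Across the 54 tested members the change correlated with GC content at -0.416 (Spearman), and across 11599 tested genes at -0.285. As a cause of the changes GC content was not tested. Counts are therefore given below also without this dish, and with a correction for transcript length and GC content.

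Of the 57 genes, 54 passed the filter of a mean of 1 FPKM and were tested. With limma on log2(FPKM + 1), 23 of them (42.6%) passed an adjusted p of 0.05, against 38.8% of all 11632 tested genes, so the share was near the background. In the RNF186 line 14 were higher and 9 lower; over all genes, 19.9% were called higher and 18.9% lower. For 31 of the 54 members no dish of one line lay within the range of the other, against 49.5% of all tested genes. The median change of the members was 0.03 on the log2 scale, against 0.00 over all tested genes, and their median absolute change was 0.143, against 0.144. Among the members 13 were called with a change of at least 0.3 in either direction (19.6% of all tested genes were) and 6 with at least 0.5 (6.79% of all tested genes were). Without the second RNF186 dish 31 members were called, 17 higher and 14 lower, but the share over all tested genes was then 48.7%. With correction for transcript length and GC content 28 members were called, 14 higher and 14 lower, and the share over all tested genes was 49.1%. Of the 23 main calls this correction kept 22, and that on GCLC was lost. Rescaling to TPM gave 20 higher and 5 lower, with 37.4% of all tested genes called, and moved the higher share of all calls to 63.1%, against 51.3%. The 13 members past 0.3 kept their call in each alternative setting that tested them, with the exception of BLVRA.

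**Figure D1:**
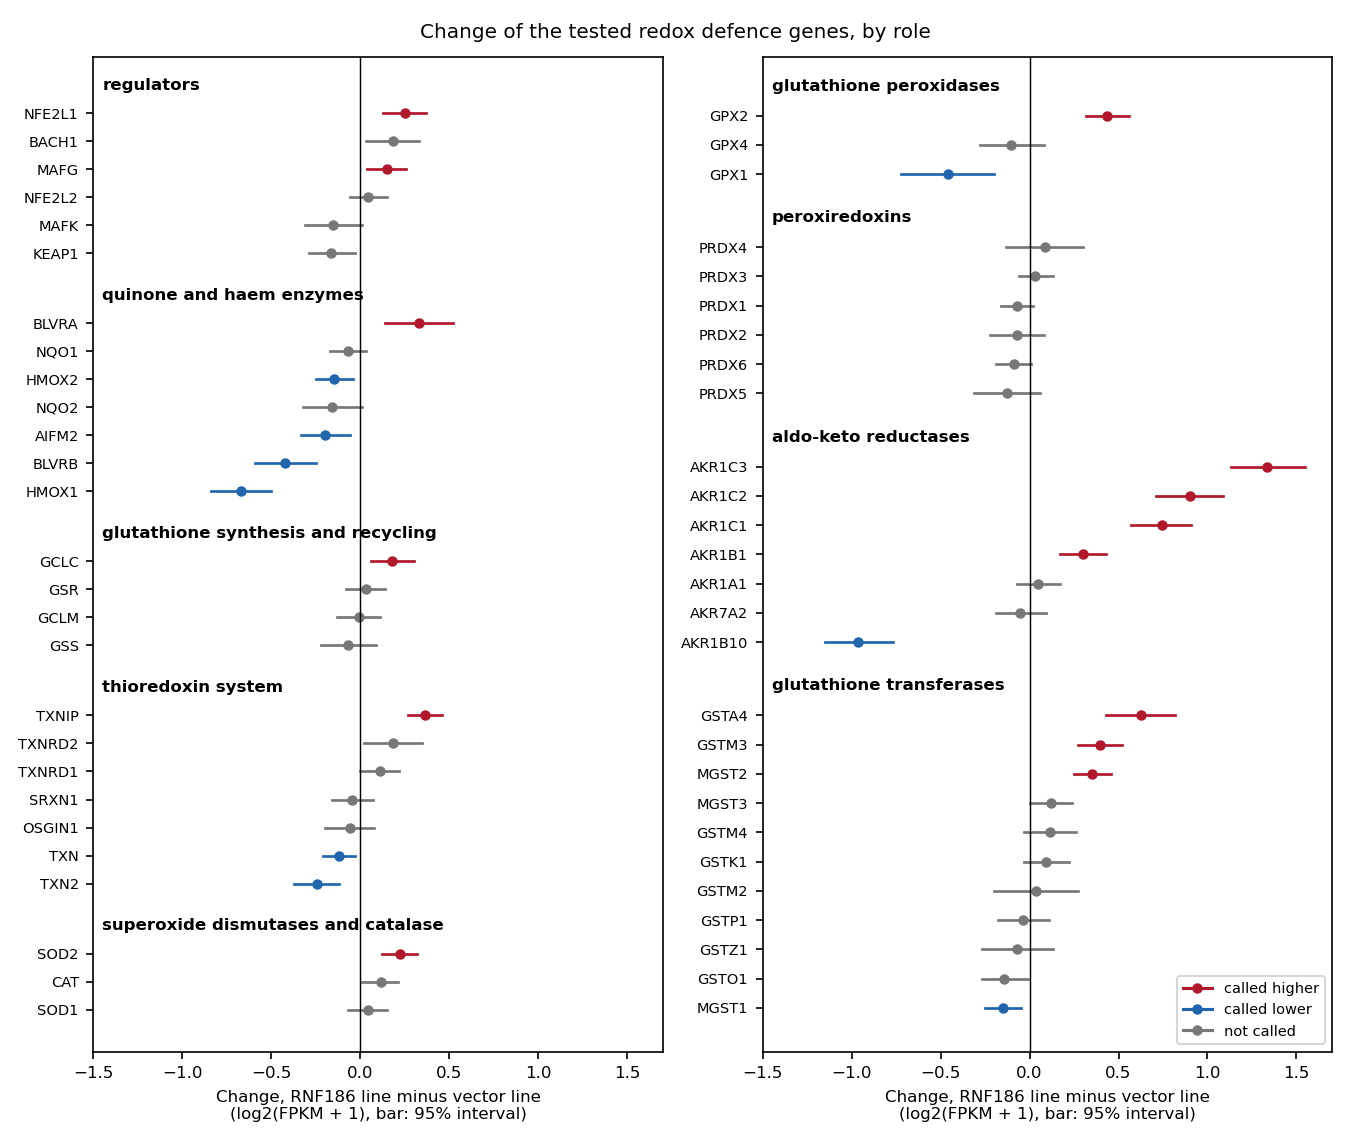
Change of each tested gene by role, as the difference RNF186 minus vector in log2(FPKM + 1) on the horizontal axis, with bars for the 95% interval. Red points were called higher, blue points lower and grey points were not called. The 3 AKR1C genes lie farthest to the right, between 0.74 and 1.34, and AKR1B10 lies farthest to the left at -0.96.

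The regulators moved little. NFE2L1, a relative of NRF2 that is anchored in the endoplasmic reticulum and drives proteasome genes, rose, as did MAFG, a small MAF partner, while NFE2L2 and KEAP1 did not pass the test. NFE2L2 stood at 78.57, 74.89 and 81.22 FPKM in the RNF186 dishes, against 73.59, 75.48 and 78.63 FPKM in the vector dishes. The groups overlapped, and the change of 0.04 had a 95% interval of -0.06 to 0.15 (adjusted p = 0.514). Of its 50-base words 14.4% occur also in the annotation AC019080.1. KEAP1, its repressor, stood at 36.95, 40.21 and 35.66 FPKM in the RNF186 dishes, against 44.8, 41.21 and 40.58 FPKM in the vector dishes. All 3 RNF186 dishes were below the vector dishes, but the change of -0.16 had an adjusted p of 0.0531. KEAP1 was called in 2 of 17 alternatives. These were leaving out the second RNF186 dish (-0.21, adjusted p = 0.00684), where 48.7% of all tested genes were called, and median scaling (-0.18, adjusted p = 0.0379). Over the alternatives its change ran from -0.21 to -0.06, with adjusted p up to 0.229. The GC content of KEAP1 is 62.1%.

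NFE2L1 stood at 27.33, 28.35 and 28.74 FPKM in the RNF186 dishes, against 24.62, 22.04 and 23.83 FPKM in the vector dishes. Its dishes did not overlap and its change was 0.25 ± 0.0544 (SE, adjusted p = 0.00554). MAFG stood at 26.4, 26.59 and 25.3 FPKM in the RNF186 dishes, against 22.88, 23.18 and 24.09 FPKM in the vector dishes. These groups were also apart, with a change of 0.15 ± 0.0485 (SE, adjusted p = 0.0317), but the call was lost when any of 4 single dishes was left out (adjusted p from 0.0527 to 0.105). MAFK, another small MAF gene, stood at 7.67, 8.42 and 7.26 FPKM in the RNF186 dishes, against 8.64, 9.41 and 8.2 FPKM in the vector dishes, and the groups overlapped (change -0.15, adjusted p = 0.13). BACH1 stood at 12.38, 10.53 and 11.45 FPKM in the RNF186 dishes, against 9.69, 9.84 and 10.36 FPKM in the vector dishes. All of its RNF186 dishes were higher, with a change of 0.18 that missed the threshold (adjusted p = 0.0562). BACH1 was called in 2 of 17 alternatives, without the second RNF186 dish (0.24, adjusted p = 0.00819) and under TPM rescaling (0.24, adjusted p = 0.0332). Over the alternatives its change ran from 0.11 to 0.24, with adjusted p up to 0.207. The ratio of KEAP1 to NFE2L2 was 0.482 ± 0.05 in the RNF186 dishes and 0.557 ± 0.0473 in the vector dishes (SD, n = 3 each, exact permutation p = 0.2 two-sided, where 0.1 is the smallest p that 3 against 3 can give).

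Of the 7 quinone and haem enzymes, 4 fell and 1 rose, where 18.9% of all tested genes fell and 19.9% rose; the falls of HMOX2 and AIFM2 were not stable to leaving out single dishes. HMOX1, the inducible haem oxygenase and a much used NRF2 target, stood at 1.62, 1.85 and 1.68 FPKM in the RNF186 dishes, against 3.38, 3.16 and 3.43 FPKM in the vector dishes. Its level was low in both lines and the groups lay far apart, with a change of -0.67 ± 0.075 (SE, adjusted p = 0.00011) and a ratio of means of 0.517. BLVRB, which reduces biliverdin and flavins, stood at 18.78, 22.19 and 17.77 FPKM in the RNF186 dishes, against 27.31, 26.82 and 25.19 FPKM in the vector dishes. All of its RNF186 dishes were lower (change -0.42 ± 0.0768 SE, adjusted p = 0.00225). BLVRA, the main biliverdin reductase of adult cells, went the other way at 2.83, 3.46 and 3.52 FPKM in the RNF186 dishes, against 2.31, 2.49 and 2.38 FPKM in the vector dishes. The dishes did not overlap (change 0.33 ± 0.0843 SE, adjusted p = 0.0127), but the call was lost without the third RNF186 dish (0.28, adjusted p = 0.0549).

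HMOX2, the constitutive haem oxygenase, averaged 38.9 ± 1.09 FPKM in RNF186 dishes and 43.1 ± 1.14 FPKM in vector dishes (SD, n = 3 each; change -0.14, adjusted p = 0.0319). AIFM2, also called FSP1, a reductase of ubiquinone that protects lipids from peroxidation, averaged 23.6 ± 1.74 FPKM in RNF186 dishes and 27.2 ± 0.782 FPKM in vector dishes (SD, n = 3 each; change -0.20, adjusted p = 0.0252). Both of these calls depended on single dishes: leaving out any of 5 dishes, every one but the second RNF186 dish, took HMOX2 to adjusted p values of 0.0669 to 0.116 and AIFM2 to 0.0532 to 0.102. NQO1, the quinone reductase used as the standard readout of NRF2, averaged 153 ± 4.47 FPKM in RNF186 dishes and 160 ± 5.37 FPKM in vector dishes, which missed the threshold (SD, n = 3 each; change -0.07, 95% interval -0.17 to 0.03, adjusted p = 0.25). NQO2 did not pass either (change -0.16, adjusted p = 0.122). When libraries were corrected for length and GC content of transcripts, NQO1 was called at -0.11 (adjusted p = 0.0274) and NQO2 at -0.17 (adjusted p = 0.0457). NQO1 was called in 1 and NQO2 in 2 of 17 alternatives, and adjusted p reached 0.76 and 0.364 in others. HMOX1 fell more than HMOX2, with ratios of means of 0.517 and 0.903. The ratio of HMOX2 to HMOX1 was 22.7 ± 0.924 in RNF186 dishes and 13 ± 0.452 in vector dishes (SD, n = 3 each, exact permutation p = 0.1). HMOX1 was already seen to lie far apart, so this p adds nothing to the single calls.

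Of the 4 genes that make and recycle glutathione, 1 was called, where 38.8% of all tested genes were called. GCLC, the catalytic subunit of the enzyme that sets the pace of glutathione synthesis, stood at 48.3, 45.25 and 46.19 FPKM in the RNF186 dishes, against 38.94, 40.5 and 43.6 FPKM in the vector dishes. The groups were apart by a narrow margin, with a change of 0.18 ± 0.0537 (SE, adjusted p = 0.0239). The call was lost when any of 4 single dishes was left out (adjusted p from 0.0622 to 0.0912), and the length and GC correction gave 0.09 (adjusted p = 0.064). Its modifier subunit GCLM averaged 18 ± 0.972 FPKM in RNF186 dishes and 18.1 ± 0.0802 FPKM in vector dishes (SD, n = 3 each; change -0.01, 95% interval -0.13 to 0.11, adjusted p = 0.921). GSS, the synthetase that completes glutathione, and GSR, the reductase that recycles it, had changes of -0.07 and 0.03 with overlapping dishes (adjusted p = 0.472 for GSS and 0.638 for GSR).

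In the thioredoxin system the inhibitor was higher and both thioredoxins lower in the RNF186 line. TXNIP, which binds reduced thioredoxin and also limits glucose uptake, stood at 103.79, 103.76 and 101.86 FPKM in the RNF186 dishes, against 80.27, 77.9 and 81.75 FPKM in the vector dishes. The dishes within each line lay close together and the lines were well apart (change 0.36 ± 0.0414 SE, adjusted p = 0.000125). TXN2, the mitochondrial thioredoxin, averaged 49.3 ± 2.72 FPKM in RNF186 dishes and 58.5 ± 2.9 FPKM in vector dishes (SD, n = 3 each; change -0.24, adjusted p = 0.00772). TXN, the cytosolic thioredoxin, was among the most abundant members, with 504 ± 12.8 FPKM in RNF186 dishes and 548 ± 6.21 FPKM in vector dishes (SD, n = 3 each; change -0.12, adjusted p = 0.0467). The call on TXN was lost in more alternatives than that of any other member, 11 of them: leaving out any single dish ended it (adjusted p from 0.0693 to 0.124), and under quantile normalization the change was -0.01 (adjusted p = 0.885). The ratio of TXNIP to TXN was 0.205 ± 0.00553 in RNF186 dishes and 0.146 ± 0.00355 in vector dishes (SD, n = 3 each, exact permutation p = 0.1). As the dishes of both genes were apart in opposite directions, that p was fixed in advance. Thioredoxin reductases TXNRD1 and TXNRD2 had changes of 0.11 (adjusted p = 0.102) and 0.19 (adjusted p = 0.0759), and neither passed the test. TXNRD1 was called at 0.15 without the second RNF186 dish (adjusted p = 0.00943), and TXNRD2 at 0.24 with the length and GC correction (adjusted p = 0.00499). Each was called in 2 of 17 alternatives. Over these, TXNRD1 went down to 0.05 with adjusted p up to 0.314, and TXNRD2 to 0.12 with adjusted p up to 0.223. SRXN1, which rescues overoxidised peroxiredoxins, and OSGIN1, both NRF2 targets, had changes of -0.05 and -0.06 with overlapping dishes. SRXN1 shares 84.7% of its 50-base words with the overlapping annotation AL121758.1, so its value is uncertain.

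**Figure D2:**
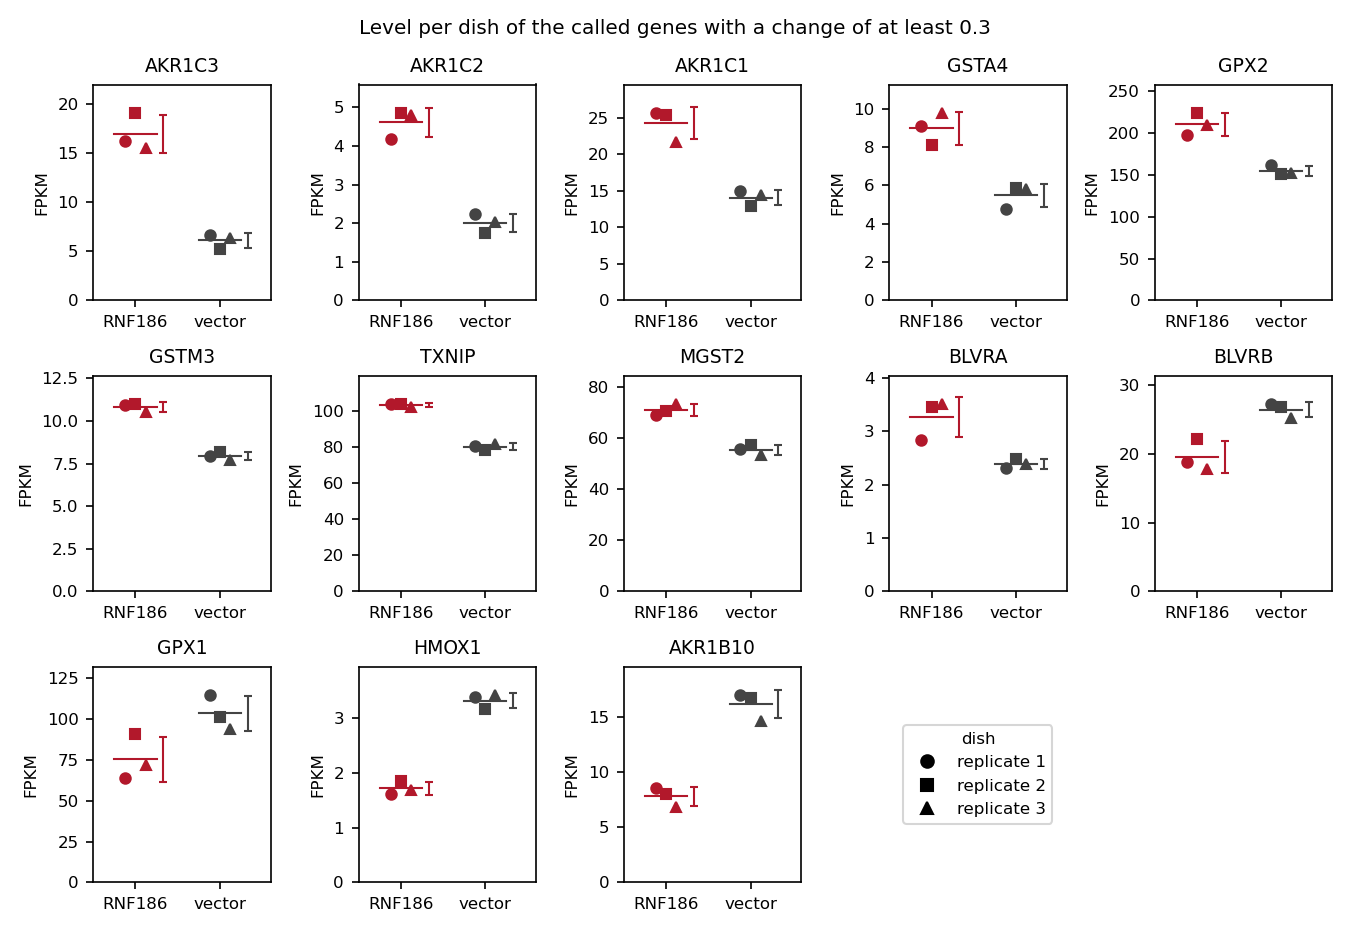
FPKM of each of the 13 called genes with a change of at least 0.3, on a linear axis that starts at 0, by dish. Points are single dishes (circle, square and triangle for replicates 1, 2 and 3), lines are means and bars are SD, with the RNF186 line in red and the vector line in grey. In none of the 13 do the dishes of the lines overlap, which choosing called genes with changes of this size makes nearly certain. Over all tested genes 49.5% were apart. Relative to its level the nearest approach of the lines is in GPX1. There the second RNF186 dish at 90.84 lies just under the lowest vector dish at 94.17.

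Among the superoxide dismutases and catalase, SOD2, the mitochondrial dismutase, was called. It stood at 55.4, 52.91 and 53.26 FPKM in the RNF186 dishes, against 45.35, 45.08 and 47.72 FPKM in the vector dishes. The groups did not overlap (change 0.22 ± 0.0457 SE, adjusted p = 0.00429). SOD1, the cytosolic dismutase, averaged 296 ± 12.2 FPKM in RNF186 dishes and 287 ± 11.6 FPKM in vector dishes (SD, n = 3 each; change 0.04, adjusted p = 0.518). CAT, the peroxisomal catalase, had a change of 0.11 with an adjusted p of 0.0694. It was called in 3 of 17 alternatives, among them without the second RNF186 dish (0.12, adjusted p = 0.0431). Over the alternatives its change ran from 0.05 to 0.16, with adjusted p up to 0.29.

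The glutathione peroxidases changed in make-up more than in sum. GPX2, the selenoprotein peroxidase of the gut epithelium, stood at 197.38, 224.27 and 208.95 FPKM in the RNF186 dishes, against 161.51, 151.11 and 151.98 FPKM in the vector dishes. Each RNF186 dish was above each vector dish (change 0.44 ± 0.0545 SE, adjusted p = 0.000228). GPX1, the ubiquitous cytosolic peroxidase, stood at 63.84, 90.84 and 71.91 FPKM in the RNF186 dishes, against 115.02, 101.34 and 94.17 FPKM in the vector dishes. The groups were apart but the dishes spread widely, with a change of -0.46 ± 0.115 (SE, adjusted p = 0.0109). GPX1 has a GC content of 62.6%, and the RNF186 dish that stood apart was the highest of its group; over the alternative settings the change ran from -0.6 to -0.35 with adjusted p at most 0.0454. Of its 50-base words 14.7% are shared with the pseudogene GPX1P1. GPX4, which reduces lipid peroxides, had a change of -0.10 that did not pass (adjusted p = 0.345). It was called in 1 of 17 alternatives, without the second RNF186 dish (-0.18, adjusted p = 0.033). Over the alternatives its change ran from -0.18 to 0.0, with adjusted p up to 0.934. GPX2 made up 52.9% ± 1.76 of the summed FPKM of the glutathione peroxidases in RNF186 dishes and 41% ± 1.52 in vector dishes (SD, n = 3 each). GPX1 made up 18.9% ± 1.61 in RNF186 dishes and 27.3% ± 0.898 in vector dishes (SD, n = 3 each). The sum was 398 ± 38.5 FPKM in RNF186 dishes and 378 ± 26.6 FPKM in vector dishes (SD, n = 3 each; exact permutation p = 0.6), and the difference was within the spread. GPX3, a secreted form, and GPX8, a form of the endoplasmic reticulum, were under 1 FPKM on average and were not tested.

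None of the 6 peroxiredoxins, which reduce hydrogen peroxide and are among the most abundant proteins of a cell, was called, and none had an unadjusted p under 0.05. Over all tested genes the share called was 38.8%. PRDX1 averaged 515 ± 13.5 FPKM in RNF186 dishes and 541 ± 2.75 FPKM in vector dishes (SD, n = 3 each; change -0.07, adjusted p = 0.218). Changes of the 6 ran from -0.13 for PRDX5 to 0.09 for PRDX4. Calls appeared in other settings, for each gene named here in 1 of 17 alternatives only. Without the second RNF186 dish PRDX2 (-0.15, adjusted p = 0.0285) and PRDX5 (-0.22, adjusted p = 0.0152) were lower. With the length and GC correction PRDX1 (-0.11, adjusted p = 0.0267) and PRDX6 (-0.15, adjusted p = 0.00815) were lower. The sum of the 6 peroxiredoxins was 1237 ± 37.2 FPKM in RNF186 dishes and 1292 ± 44.1 FPKM in vector dishes (SD, n = 3 each, exact permutation p = 0.2).

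The aldo-keto reductases, which reduce aldehydes and ketones with NADPH, held the changes of greatest size among the members, in both directions. The 3 AKR1C genes lie in a cluster on chromosome 10 and encode reductases of steroids and prostaglandins. AKR1C3, which makes testosterone and prostaglandin F, stood at 16.2, 19.13 and 15.57 FPKM in the RNF186 dishes, against 6.71, 5.28 and 6.35 FPKM in the vector dishes. The lowest RNF186 dish was above the highest vector dish by a wide margin, with a change of 1.34 ± 0.0946 (SE, adjusted p = 4.58e-06) and a ratio of means of 2.78. AKR1C2 stood at 4.18, 4.86 and 4.79 FPKM in the RNF186 dishes, against 2.23, 1.75 and 2.04 FPKM in the vector dishes. Its groups were also apart (change 0.90 ± 0.0867 SE, adjusted p = 3.89e-05). AKR1C1, which inactivates progesterone, stood at 25.68, 25.3 and 21.71 FPKM in the RNF186 dishes, against 14.91, 12.93 and 14.37 FPKM in the vector dishes. It was the most abundant of the 3 in every dish (change 0.74 ± 0.0757 SE, adjusted p = 5.89e-05). Together the 3 summed to 45.8 ± 3.62 FPKM in RNF186 dishes and 22.2 ± 2.01 FPKM in vector dishes, a ratio of 2.06 (SD, n = 3 each, exact permutation p = 0.1). As each of the 3 was already apart in the same direction, the p of the sum was fixed in advance.

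AKR1B10, a reductase of retinal and lipid aldehydes, went the other way, at 8.58, 7.97 and 6.83 FPKM in the RNF186 dishes, against 17, 16.7 and 14.66 FPKM in the vector dishes. All of its RNF186 dishes lay well under the vector dishes (change -0.96 ± 0.085 SE, adjusted p = 2.13e-05, ratio of means 0.483). The ratio of AKR1C3 to AKR1B10 was 2.19 ± 0.268 in RNF186 dishes and 0.381 ± 0.0596 in vector dishes (SD, n = 3 each, exact permutation p = 0.1), so the 2 genes stand in opposite order in the 2 lines. Since both genes were already apart in opposite directions, that p was fixed in advance and adds nothing to the single calls. AKR1B1, aldose reductase, averaged 69.9 ± 4.09 FPKM in RNF186 dishes and 56.7 ± 3.42 FPKM in vector dishes (SD, n = 3 each; change 0.30, adjusted p = 0.0036). AKR1A1 and AKR7A2 had changes of 0.05 and -0.05 and were not called.

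Reads of these genes are hard to tell apart. In GENCODE 29 transcripts, 47% of the 50-base words of AKR1C2 occur also in AKR1C1 and 26.6% of those of AKR1C1 in AKR1C2. AKR1C3 shared 9.55% with any other gene. AKR1B10 shared 17.4% with any other gene, and 11.6% with AKR1B15 alone. How the authors counted shared reads is not stated, so the single values of AKR1C1 and AKR1C2 are uncertain. The 60 bases before a start of each AKR1C gene, from RefSeq GRCh38.p14, show how alike these neighbours are. Capitals mark an 11-base run, the longest that the 3 windows shown share. AKR1C3 has more than 1 start in that table, and the run was sought with the start of lowest coordinate, which is shown. The window before its other start, chr10:5094354-5094413, does not hold the run. AKR1C3 and AKR1C1 are on the plus strand, while AKR1C2 is on the minus strand. The coordinates are chr10:4963355-4963414, chr10:5003858-5003917 and chr10:5048721-5048780 in the order given.
AKR1C1: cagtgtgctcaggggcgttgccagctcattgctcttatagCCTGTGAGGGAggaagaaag
AKR1C2: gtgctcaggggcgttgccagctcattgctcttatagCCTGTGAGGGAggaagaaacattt
AKR1C3: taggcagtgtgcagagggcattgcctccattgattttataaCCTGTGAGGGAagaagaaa
Over 250 bases upstream, AKR1C1 and AKR1C2 were identical at 245 of 246 aligned bases (99.6%). With the AKR1C3 start shown, AKR1C1 was identical at 185 of 241 (76.8%) and AKR1C2 at 183 of 237 (77.2%). With the other AKR1C3 start, AKR1C1 was identical at 184 of 234 (78.6%) and AKR1C2 at 185 of 234 (79.1%). The 2 AKR1C3 starts were identical to each other at 174 of 225 (77.3%).

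Of the 11 tested glutathione transferases, which join glutathione to electrophiles, 3 rose and 1 fell, so that 36.4% were called, against 38.8% of all tested genes. GSTA4, which clears the lipid aldehyde 4-hydroxynonenal, stood at 9.1, 8.09 and 9.8 FPKM in the RNF186 dishes, against 4.78, 5.87 and 5.81 FPKM in the vector dishes. Its groups did not overlap (change 0.62 ± 0.0892 SE, adjusted p = 0.000534, ratio of means 1.64). GSTM3 stood at 10.94, 11.02 and 10.52 FPKM in the RNF186 dishes, against 7.97, 8.21 and 7.74 FPKM in the vector dishes. The spread within each line was small beside the gap (change 0.40 ± 0.0564 SE, adjusted p = 0.000508). MGST2, a membrane-bound transferase that can also form leukotriene C, stood at 69.05, 70.78 and 73.62 FPKM in the RNF186 dishes, against 55.65, 57.43 and 53.34 FPKM in the vector dishes. All of its RNF186 dishes were higher (change 0.35 ± 0.0474 SE, adjusted p = 0.000367). MGST1, another membrane-bound form, averaged 180 ± 7.68 FPKM in RNF186 dishes and 200 ± 2.51 FPKM in vector dishes (SD, n = 3 each; change -0.15, adjusted p = 0.0249), a call that was lost when any of 4 single dishes was left out (adjusted p from 0.066 to 0.114) and under TPM rescaling (-0.10, adjusted p = 0.103). GSTP1, the dominant transferase, averaged 505 ± 35.8 FPKM in RNF186 dishes and 518 ± 34.5 FPKM in vector dishes (SD, n = 3 each; change -0.04, adjusted p = 0.67). It made up 50.9% ± 1.66 of the transferase sum in RNF186 dishes and 52% ± 1.01 in vector dishes. That sum was 992 ± 40.3 FPKM in RNF186 dishes and 997 ± 47 FPKM in vector dishes (SD, n = 3 each; exact permutation p = 0.8). GSTK1, GSTM4, MGST3, GSTO1, GSTZ1 and GSTM2 had changes from -0.14 to 0.12 and were not called; GSTM2 stood near 1 FPKM and shares 28.8% of its 50-base words with GSTM1.

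**Figure D3:**
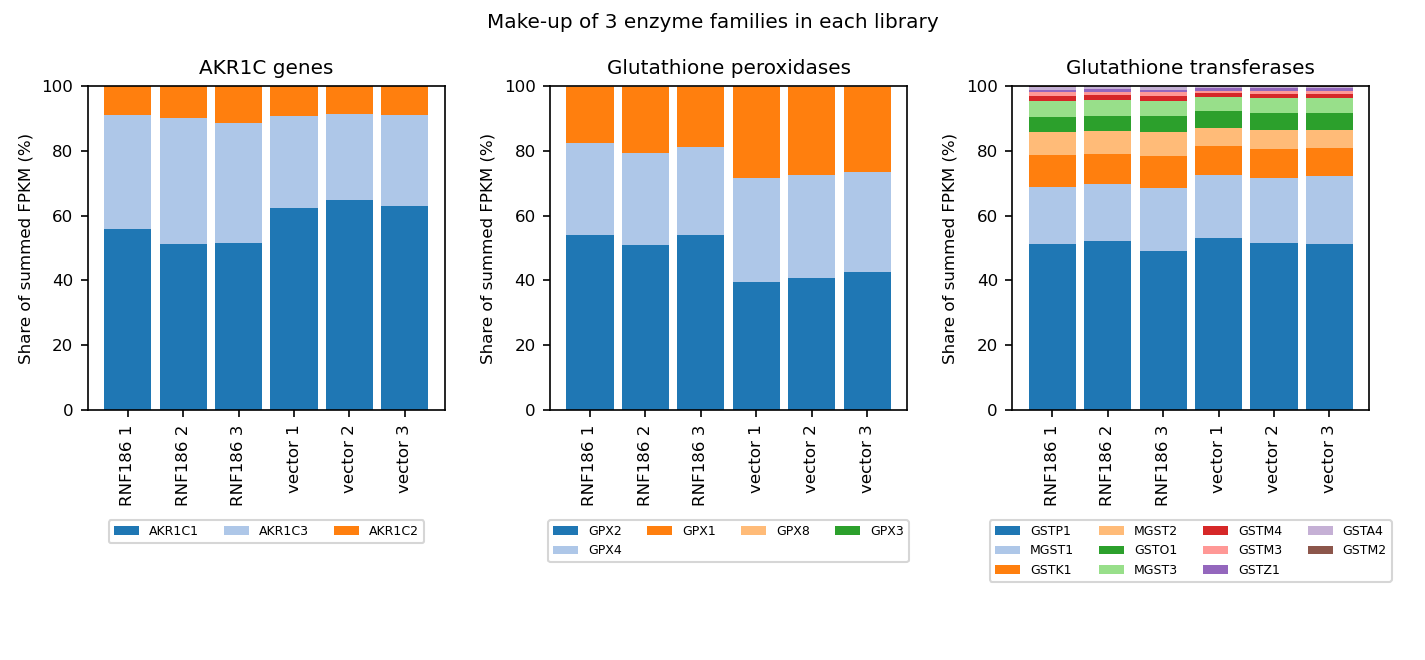
Share of summed FPKM (percent) that each gene took within the AKR1C genes, the glutathione peroxidases and the glutathione transferases, 1 bar for each library, RNF186 dishes left. AKR1C3 took 37% ± 1.82 in RNF186 dishes and 27.5% ± 0.911 in vector dishes, and GPX2 and GPX1 shifted against each other, while GSTP1 held 49.1 to 53.1% in every library.

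Levels spread over a wide range. Over the 6 libraries 12 members averaged at least 100 FPKM, 32 lay between 10 and 100, 10 between 1 and 10, and 2 were under 1. PRDX1, TXN and GSTP1 were the highest, at 528, 526 and 512 FPKM. Together the members took 1.19 to 1.21% of the summed FPKM in RNF186 dishes and 1.16 to 1.18% in vector dishes. Of the 12 members of at least 100 FPKM, GPX2, MGST1 and TXN were called, where 38.8% of all tested genes were called.

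**Figure D4:**
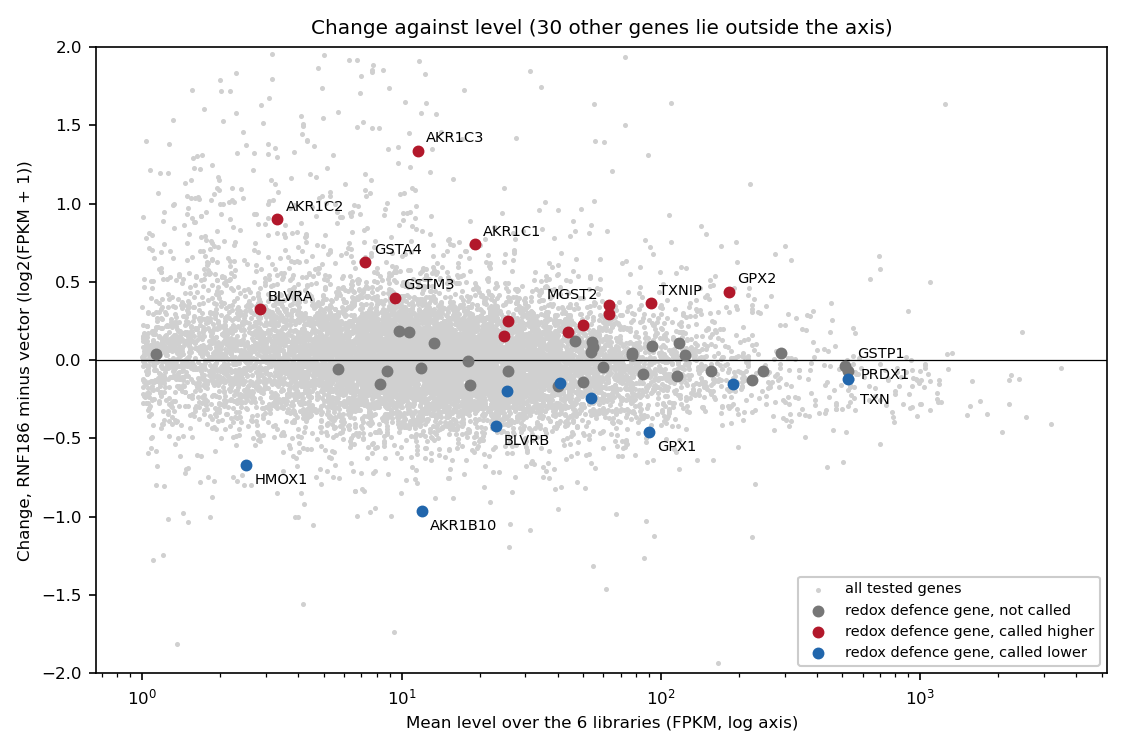
Change RNF186 minus vector in log2(FPKM + 1) against the mean level over the 6 libraries in FPKM on a log axis, with all tested genes in light grey and the redox defence genes in colour by call. 30 other genes lie outside the axis. The 6 called members with a change of at least 0.5 lie at or under the 19.2 FPKM of AKR1C1, while PRDX1, TXN and GSTP1, above 500 FPKM, lie near 0.

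The members were also read for a sequence motif. They were chosen by name and not by sequence, but 17 of them are core NRF2 targets. The choice was therefore not independent of a motif that NRF2 binds. TGACNNNGC is the core of the antioxidant response element, and it was sought on both strands of the RefSeq GRCh38.p14 window from 250 bases before to 50 after each start. A window was found for 47 members, and 10 of these (21.3%) held the core, against 16.1% of all 27305 symbols in that table and 19.4% of the 9599 tested genes with a window. Among called members 4 of 19 (21.1%) held it, and among tested members not called 6 of 25 (24%). The called members with the core are shown, with it in capitals, in the direction of the gene; GCLM, not called, and NQO1, with no core in its window, both belong to the NRF2 targets as well. GPX2 lies at chr14:64942849-64942877 and GSTA4 at chr6:52995275-52995303, both on the minus strand. AIFM2 lies at chr10:70132829-70132857 on the minus strand and MGST1 at chr12:16347135-16347163 on the plus strand, and GCLM at chr1:93909446-93909474 on the minus strand.
GPX2: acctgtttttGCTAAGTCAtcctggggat
GSTA4: ccgggaccgcTGACCTGGCgctttgtgcg
AIFM2: cagcacgagtGCTGAGTCAcgccccgccc
MGST1: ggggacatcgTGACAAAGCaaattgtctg
GCLM: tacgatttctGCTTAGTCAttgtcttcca
In GPX2, AIFM2 and GCLM the core reads on the opposite strand of the gene. A match is a description of letters and not a bound site.

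Genes of the same pathways outside the 57 were counted from wider lists, to be read against the 19.9% higher and 18.9% lower of all tested genes. Of the 22 tested other NRF2 targets 6 rose and 6 fell. ME1, the malic enzyme that supplies NADPH, averaged 30.2 ± 1.88 FPKM in RNF186 dishes and 21.1 ± 0.61 FPKM in vector dishes (SD, n = 3 each; change 0.49, adjusted p = 0.000137). SQSTM1, the autophagy receptor p62 that binds KEAP1, averaged 214 ± 13.1 FPKM in RNF186 dishes and 157 ± 8.14 FPKM in vector dishes (SD, n = 3 each; change 0.45, adjusted p = 0.000249). In the other direction, CBR1, a carbonyl reductase, had a change of -0.35 (adjusted p = 0.000628) and IDH1, an NADPH-making dehydrogenase, one of -0.31 (adjusted p = 0.000754). Among 17 core NRF2 targets within the members 6 rose and 4 fell, with a median change of -0.01. Of 9 tested partners of NRF2, 3 rose and 0 fell (0 also at an unadjusted p under 0.05): SQSTM1, the small MAF gene MAFF (0.39, adjusted p = 0.00788) and BTRC (0.29, adjusted p = 0.00789), a ubiquitin ligase subunit that targets NRF2. With the length and GC correction CUL3, the ligase scaffold that works with KEAP1, was called lower (-0.13, adjusted p = 0.0254), as was CAND1 (-0.12, adjusted p = 0.0117), a regulator of such ligases. Under the same correction DPP3, another of these partners, was called higher (0.12, adjusted p = 0.0247).

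Other glutathione and thioredoxin genes gave 3 rises and 7 falls among 26 tested. GLRX, glutaredoxin, rose by 0.69 (adjusted p = 3.89e-05), PTGES, prostaglandin E synthase, by 0.92 (adjusted p = 5.31e-05), and GSTT1 by 0.15 (adjusted p = 0.029), a call lost when any of 4 single dishes was left out (adjusted p from 0.0621 to 0.0977). PTGES averaged 2.51 ± 0.194 FPKM in RNF186 dishes and 0.857 ± 0.168 FPKM in vector dishes (SD, n = 3 each), so that it passed the filter through 1 line only. SOD3, the secreted dismutase, fell by 0.59 (adjusted p = 0.000651) and TXNDC17 fell by 0.39 (adjusted p = 0.000787). Of 10 tested enzymes that make superoxide or hydrogen peroxide 3 rose and 3 fell. The mitochondrial amine oxidases went opposite ways: MAOA had a change of -0.54 (adjusted p = 0.000115) and MAOB one of 0.48 (adjusted p = 0.000686). ERO1B, which passes electrons to oxygen as it forms disulfide bonds in the endoplasmic reticulum, rose by 0.67 (adjusted p = 0.000197).

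Among selenoproteins and the genes that make them 6 of 18 rose and 4 fell. The 4 with the smallest p were SELENOF (0.33, adjusted p = 0.000228), SELENOM (1.10, adjusted p = 0.000501), SELENOS (0.31, adjusted p = 0.00058) and SELENOK (0.34, adjusted p = 0.000639). All were higher in the RNF186 line and all are selenoproteins of the endoplasmic reticulum. Of the same compartment, SELENOT (0.09, adjusted p = 0.222), SELENON (0.00, adjusted p = 0.984) and SELENOI (-0.06, adjusted p = 0.462) were not called. With the length and GC correction SELENOI was called lower (-0.12, adjusted p = 0.0218). The 4 that fell were SEPHS1 (-0.24, adjusted p = 0.00429) and SEPHS2 (-0.18, adjusted p = 0.00769), both of the selenophosphate synthetase family, SELENOW (-0.20, adjusted p = 0.0119) and SELENOO (-0.40, adjusted p = 0.0136). The call on SELENOW was lost without the first RNF186 dish (adjusted p = 0.0549) and that on SELENOO without the third (adjusted p = 0.0538). SELENOM was low, at 3.03 ± 1.02 FPKM in RNF186 dishes and 0.85 ± 0.171 FPKM in vector dishes (SD, n = 3 each), and it passed the filter through the RNF186 line. Of the 7 regulators and relatives of TXNIP 4 fell and 0 rose (0 also at an unadjusted p under 0.05), while TXNIP itself rose. MLX, the partner of the glucose-sensing factors that drive TXNIP, averaged 37.5 ± 1.16 FPKM in RNF186 dishes and 49.9 ± 1.56 FPKM in vector dishes (SD, n = 3 each; change -0.40, adjusted p = 0.000151). The arrestin relatives ARRDC1 (-0.42, adjusted p = 0.00784), ARRDC2 (-0.28, adjusted p = 0.00509) and ARRDC4 (-0.19, adjusted p = 0.0318) were lower; with the length and GC correction ARRDC2 was not called (-0.15, adjusted p = 0.189), and ARRDC4 lost its call when any of 4 single dishes was left out (adjusted p from 0.0618 to 0.11).

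**Figure D5:**
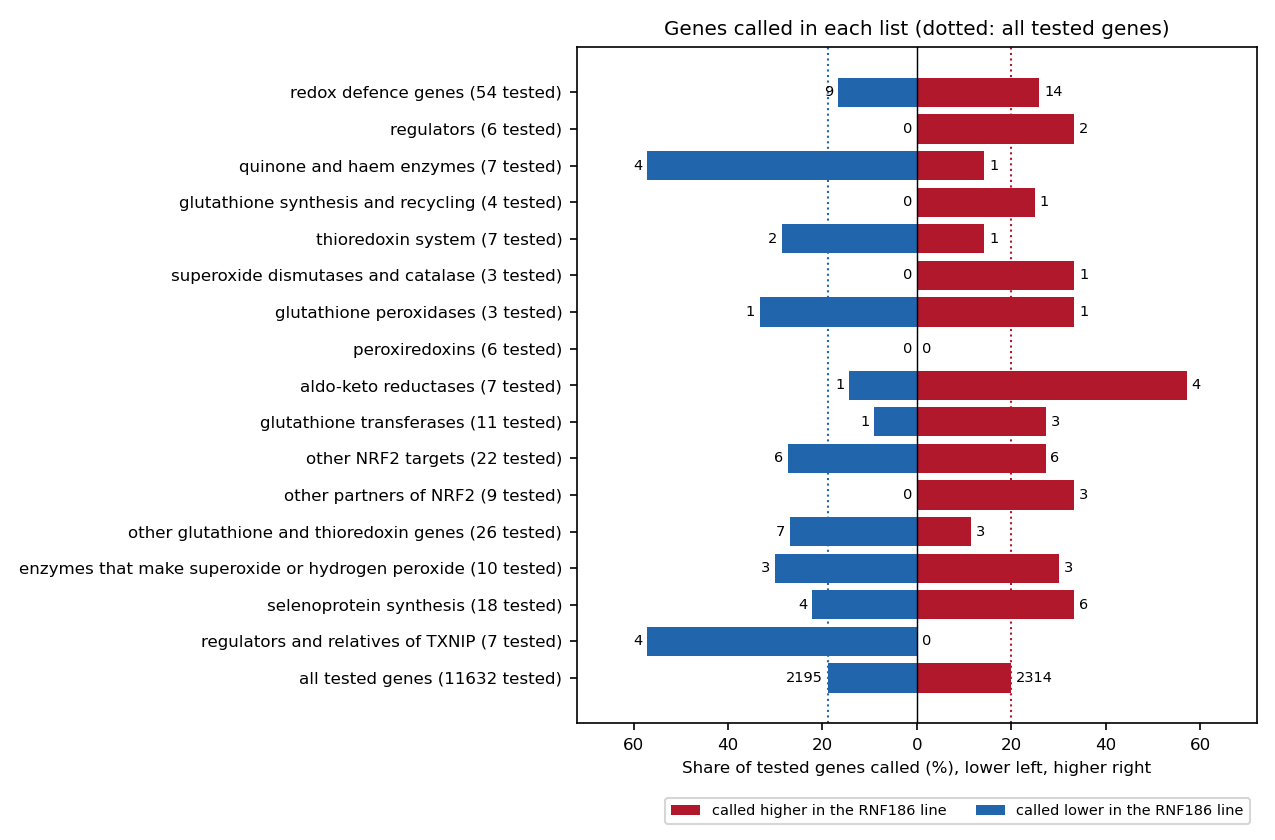
Share of tested genes called lower (left, blue) and higher (right, red) in the RNF186 line for each list, in percent, with the number of genes at the end of each bar. Dotted lines mark all tested genes, at 18.9% lower and 19.9% higher. The aldo-keto reductases lie mostly on the higher side (4 of 7), and the quinone and haem enzymes mostly on the lower side (4 of 7).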

How the data were processed

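RNA-seq of 6 Ls174t libraries was analysed, 3 dishes of the RNF186 line and 3 of the vector line. The deposited values are FPKM computed by the authors; the libraries were made with a TruSeq kit per the labels' protocols, and the submitters' processing notes name Bowtie 0.12.2 and the mouse builds mm8 and mm9, which contradict the human labels and identifiers. The counting program and annotation are not given in the sources used here, and depth is unknown. Of 19485 rows, 1 named no gene and 1921 had no value. Entrez identifiers were matched to RefSeq GRCh38.p14 symbols (17524 matched, 39 not). Values were analysed as log2(FPKM + 1), for genes averaging 1 FPKM or more, with limma 3.58.1 in R 4.3.3 (trend, two-sided, no covariates, Benjamini-Hochberg over all 11632 tested genes, called at an adjusted p under 0.05). The scale understates changes of low genes. Sums within 10 families and 7 ratios were compared by exact permutation tests, unadjusted, which cannot go below 0.1. The procedure was tested on simulated data. Values in every dish are given for called members with a change of at least 0.3, the regulators, and the called member with the smallest p of a role with none such; of each wider list up to 4 called genes with the smallest p, and all of a small count, are named, except 1 gene that is not reported here. The members and lists were chosen with earlier results of these data known. Alternatives were other pseudocounts, filters, scalings, variance models, a replicate block, leaving out each dish and, added after seeing the data, a correction for transcript length and GC content from GENCODE 29.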

Additional observations from a re-analysis of the deposited data

How the results depend on the processing

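Of the 23 called members, 16 kept the call in each of the 17 alternatives that tested them, and TXN, HMOX2, MGST1, AIFM2, GCLC, MAFG and BLVRA lost it in at least 1. Of 914 pairs of a member and an alternative 843 gave the same call, 45 lost it and 26 gained it, and no called change turned sign. TPM rescaling raised the share of higher calls over all genes to 63.1%, against 51.3%, with 5 members called lower, 20 higher, a members' median of 0.08, and 4 mitochondrial and 4 selenoprotein members called. With the length and GC correction 49.1% of all tested genes were called, and 42.9% of these calls were higher. It gave 14 members higher and 14 lower, and 6 partners of NRF2 called, 4 higher and 2 lower. With a mean of at least 5 FPKM, 1 partner of NRF2 and 3 enzymes that make superoxide or hydrogen peroxide were called, since fewer genes were tested. Leaving out 1 dish gave 1708 to 2710 genes higher and 1432 to 2949 lower over all genes, 11 to 17 members higher and 5 to 14 lower; the highest counts came without the second RNF186 dish, and the lowest count of genes lower over all genes without the third. Called genes were then 8 to 15 of the other NRF2 targets, 7 to 12 of the other glutathione and thioredoxin genes, 3 to 5 of the relatives of TXNIP, 7 to 10 of the core targets and 2 to 4 of the selenoprotein members. The cause was not tested. Whether same-numbered dishes were handled together is not stated in the labels, and the values cannot settle it. Deviations of same-numbered dishes from their group means correlated at -0.274, -0.0686 and 0.255, but such deviations also followed GC content to differing degrees. Not every dish correlated best with its own number. With the number as a replicate block, 4037 genes and 19 members were called, 13 higher and 6 lower, and HMOX2, MAFG, MGST1 and TXN were not. Without read counts, precision at low FPKM cannot be stated.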
